A study of Homo sapiens with 18 samples.

Results

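The comparison set SKOV-3 cells expressing the luteinizing hormone receptor (LHR) that had been incubated with luteinizing hormone (LH) for 4 h (LH4) against the same cells incubated with LH for 1 h (LH1), with 3 arrays in each group and so 6 of the 18 arrays in the series. SKOV-3 is an established human ovarian carcinoma line, which was stably transfected to express LHR. Whether the LHR+ line was 1 clone is not given in the sources used here. Both groups received LH at 50 ng/ml and differed in the time of incubation. The other arrays came from cells without the receptor (LHR-), which received no LH, from LHR+ cells without LH (LHR+), and from LHR+ cells with LH for 8 h (LH8) or 20 h (LH20), again with 3 arrays in each group. The study describes the triplicates as independent. No array came from cells left for 1 h or 4 h without LH, so the duration of LH exposure and the time in culture cannot be told apart.

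LHR is a G protein-coupled receptor of granulosa, theca and Leydig cells. When LH binds, the receptor activates adenylyl cyclase, and the cAMP made activates protein kinase A, which phosphorylates the transcription factor CREB. The receptor also acts through inositol phosphates and the MAP kinase ERK. Immediate early genes, such as FOS and EGR1, are transcribed within minutes of such a signal without new protein synthesis, and their short-lived mRNAs usually fall again soon after. The proteins they encode, together with CREB, then act on a later set of genes, often called the second wave, which includes enzymes that degrade cAMP. The step from 1 h to 4 h covers the time between both sets.

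All values are the deposited probe set intensities of Affymetrix human genome U133 Plus 2.0 arrays. Differences are between group means of log2(intensity + 1), LH4 minus LH1, given with the standard error (SE) of the fit, and adjusted p is limma's moderated test with Benjamini-Hochberg adjustment over all 54613 probe sets. A probe set was called where p was under 0.05, adjusted p was under 0.1, the difference was at least 1 on the log2 scale (2-fold) and the 3 arrays of 1 group were all above the 3 of the other. A gene is given by its brightest probe set. Beside some lists, counts at unadjusted p under 0.05 are given, for which the share of all genes was not counted. The ordinary test given there has no moderation but keeps every other part of the call, the 2-fold limit included. The table holds no detection calls, so a low intensity does not say whether a transcript was present, and intensities of different genes are not set against each other.

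Of the 6 arrays, LH1 replicate 2 stood apart in some measures. Its median intensity was 57.7, against 51.9 and 52.5 on the other LH1 arrays and 51.0 to 54.3 on the LH4 arrays. The mean log2 intensity of 25 ribosomal protein genes was 13.36 on it, against 13.57 to 13.72 on the other 5. It gave the highest correlations with the LH4 arrays. Pearson correlation over all probe sets was 0.963 to 0.965 within the groups and 0.959 to 0.963 between them. The log2 difference between the 3′ and 5′ ACTB control probe sets, a measure of RNA and amplification quality, was 3.07 to 3.19 for LH1 and 2.98 to 3.18 for LH4. Of 12 genes fixed as markers of the carcinoma line, 7 were above 1000 on all 18 arrays, among them the epithelial keratins KRT7, KRT8, KRT18 and KRT19, while MUC16 stayed below 50. Of the others, CDH1 ran from 11.3 to 60.4, EPCAM from 41.6 to 251, WT1 from 44.7 to 194 and MUC1 from 977 to 3426. All 7 leukocyte, all 7 endothelial and all 9 granulosa and steroidogenic markers were below 50 on all 18 arrays. The LHCGR probe set read 0.40 to 4.11 on these 6 arrays and was equally low on the LHR- arrays, with a mean of 0.76, so it gives no check of the transfected receptor.

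Between 1 h and 4 h of LH, 401 probe sets rose, 0.734% of those tested, and 430 fell, 0.787%. Counted with 1 probe set per gene, 146 of 19752 genes rose (0.739%) and 158 fell (0.8%). Without LH1 replicate 2, 184 genes rose, 125 of them among the 146, and 142 fell, 125 of them among the 158. With adjusted p alone as the rule, 609 genes (3.08%) lay above and 568 (2.88%) below. The median difference over all genes was -0.01, on values already summarised across arrays by the authors, so differences are relative to that scale. The rises had a median size of 1.57 on the log2 scale and 10 of the 146 reached 8-fold, against 1.39 and 3 of 158 for the falls. The gene with the largest fall was the immediate early transcription factor EGR1, and the one with the largest rise was SMOC1, a secreted calcium-binding matrix protein.

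The genes that fell had different histories. Of the 158, 43 were at least 2-fold higher at 1 h than in LHR+ cells without LH and so came down from a peak, whereas 100 differed from LHR+ by less than 0.5 on the log2 scale at 1 h in mean level. At 4 h, 145 of the 158 had a mean below that of LHR+ cells. Of the 146 genes that rose, 113 had a lower mean at 8 h than at 4 h and 96 a lower mean at 20 h than at 4 h. These counts come from group means that share arrays with LH4/LH1 and carry no test.

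**Figure D1:**
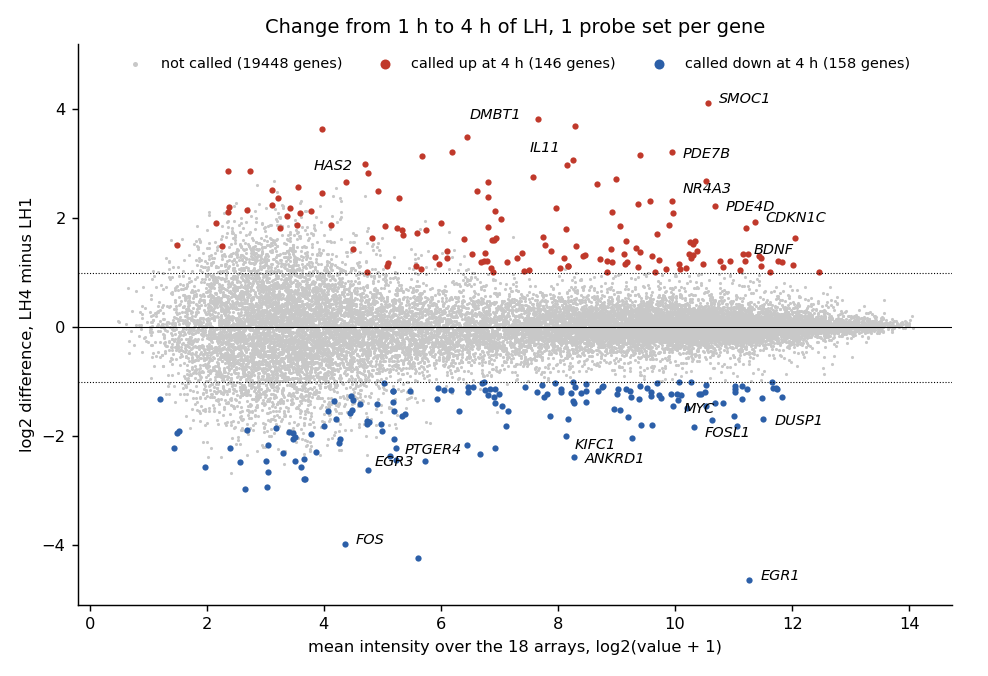
Each point is 1 gene of the 19752 tested. The x axis is its mean intensity over all arrays of the series, as log2(mean + 1). The y axis is its log2 difference, LH4 minus LH1. The 146 genes called up are red and the 158 called down blue. The extremes are SMOC1 at 4.12 and EGR1 at -4.64.

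The immediate early transcription factors, the first genes switched on by growth factor and cAMP signals, contained the sharpest decline. Of 38 measured, 6 fell (EGR1, FOS, EGR3, FOSL1, MYC and HES1), 2 rose (NR4A3 and ID3) and 30 were not called, with a median difference of -0.23. These counts stand beside backgrounds of 0.8% of all genes down and 0.739% up. Relative to LHR+ cells without LH, the list's median was 0.58 for LH1, 0.38 for LH4, 0.11 for LH8 and 0.34 for LH20.

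EGR1 encodes a zinc finger transcription factor. Its intensity was 10215, 7559.6 and 11119 on the 3 LH1 arrays and 409, 348 and 383 on the LH4 arrays. The groups were far apart, and the difference was -4.64 ± 0.14 (SE, adjusted p = 5.4e-10), a 25.0-fold fall. At 4 h EGR1 was also below its level before LH, where the LHR+ mean was 1410.0 ± 38.8 (SD, n = 3), and it remained low at 8 h with a mean of 302. Its other 2 probe sets fell by 6.30 and 4.62 on the log2 scale.

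FOS, the partner of JUN in the AP-1 dimer, followed the same course at far dimmer intensities. It read 66.6, 67.5 and 85.9 at 1 h and 4.47, 3.54 and 3.16 at 4 h, against a mean of 5.76 in LHR+ cells. All 3 arrays at 1 h were thus above all 3 at 4 h, where the gene was back at about its level without LH. The difference was -3.98 ± 0.57 (SE, adjusted p = 0.0014), but because the 4 h values are so low its size rests on the offset, and with 16 added to each intensity in place of 1 it was -2.17.

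FOSB, a second FOS family member, read 465, 598 and 375 at 1 h and 197, 182 and 112 at 4 h. The groups did not overlap, yet the difference of -1.56 ± 0.47 (SE) had adjusted p = 0.11 and was not called. FOSL1, which encodes FRA-1, fell from 2404 ± 125 to 678 ± 39.3 (SD, n = 3 each), a difference of -1.83 ± 0.10 (SE, adjusted p = 5.6e-07). Unlike FOS, FOSL1 was not raised at 1 h, since its LHR+ mean was 2244, and it fell below that level at 4 h.

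The JUN genes were not called. JUN read 5701, 5985 and 5786 at 1 h and 5456, 6618 and 6876 at 4 h, with overlapping groups and a difference of 0.11 ± 0.13 (SE, adjusted p = 0.8). JUNB had a difference of -0.17 ± 0.19 (SE, adjusted p = 0.8) and JUND one of 0.20 ± 0.09 (SE, adjusted p = 0.39). None of these met the call, and a p above the threshold does not show that their levels were equal.

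EGR3, a relative of EGR1, read 133.3, 249 and 129 at 1 h and 27.1, 40.4 and 21.7 at 4 h, a difference of -2.46 ± 0.32 (SE, adjusted p = 0.00051). The 4 h values lay around the LHR+ mean of 27.7. MYC, a driver of cell growth and ribosome production, read 2443, 2258 and 2913 at 1 h and 885, 839.9 and 1070.1 at 4 h, a difference of -1.44 ± 0.14 (SE, adjusted p = 5.6e-05). HES1, a transcriptional repressor downstream of Notch, fell from 1145 ± 73.0 to 502 ± 18.9 (SD, n = 3 each), a difference of -1.19 ± 0.17 (SE, adjusted p = 0.0014). A dimmer HES1 probe set, with means of 615 and 477, had a difference of -0.38 (adjusted p = 0.43) and was not called. Nor was the dimmest, with means of 1.58 and 4.08. The means of MYC and HES1 at 4 h, 932 and 502, were still above their LHR+ means of 775 and 326.

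Several immediate early factors stayed up or moved by less than the rule required. ATF3, a stress-induced CREB family repressor, declined from 3371 ± 191 to 1753 ± 57.7 (SD, n = 3 each), and at -0.94 ± 0.10 (SE, adjusted p = 9.7e-05) it passed the test but not the 2-fold limit. The 3 NR4A nuclear receptors, orphan receptors induced by cAMP, went different ways in value. NR4A1 had a mean of 146 at 1 h and 116 at 4 h and was not called (adjusted p = 0.69). NR4A2 had means of 402 and 779.6, a difference of 0.99 ± 0.22 (SE, adjusted p = 0.023) that fell just short of 2-fold, and NR4A3 rose and is described with the second wave. The differences between the 3 receptors were not tested. CEBPD, a leucine zipper factor, had a difference of 0.97 ± 0.13 (SE, adjusted p = 0.0009), BCL6 one of -0.46 ± 0.12 (SE, adjusted p = 0.059) and MAFF one of 0.18 ± 0.13 (SE, adjusted p = 0.65), and none of them was called.

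Promoter sequence shows which letters the early genes hold close to the start of transcription. The windows below are from RefSeq on GRCh38.p14, 5′ to 3′ on the gene's strand, and end before the transcription start. Capitals mark TGACG, the core of the CRE bound by CREB, in either orientation (CGTCA on the other strand), the full CRE TGACGTCA, which is made of that core in both orientations, and the CArG box bound by serum response factor. EGR1 and FOS are shown as the genes with the largest falls and DUSP1 as an early gene with a full CRE. The EGR1 window is chr5:138465339-138465418 (plus strand), FOS chr14:75278738-75278797 (plus strand) and DUSP1 chr5:172771296-172771375 (minus strand).
EGR1: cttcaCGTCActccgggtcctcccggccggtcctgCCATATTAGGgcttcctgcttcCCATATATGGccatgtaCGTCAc
FOS: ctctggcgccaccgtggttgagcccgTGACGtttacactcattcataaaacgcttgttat
DUSP1: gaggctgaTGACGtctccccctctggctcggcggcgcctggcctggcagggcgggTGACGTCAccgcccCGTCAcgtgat
Within the 250 bases before and 50 after the start, 62.1% of the 29 immediate early factor promoters matched held the CRE core, against 29.7% of all 15390 promoters matched to tested genes, and 6.9% held a CArG box, against 1.22%. Of the 61 matched promoters of the mitotic list described further on, 49.2% held the core too and 9.84% held a full CRE. These are letter matches, which do not show binding in these cells.

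Immediate early genes for signalling proteins also included falling members. Of 33 measured, 4 fell (DUSP1, EDN1, CCN1 and CCN2), beside 0.8% of all genes, and limma called 0 up, with 10 up at unadjusted p under 0.05 and 0 by the methods' ordinary test without moderation. The list's median was 0.04. DUSP1, a phosphatase that inactivates MAP kinases, read 7252, 6834 and 7875 at 1 h and 1991, 2588 and 2242 at 4 h, a difference of -1.69 ± 0.15 (SE, adjusted p = 1.9e-05). The LHR+ mean was 1453, so DUSP1 at 4 h lay between its resting and its 1 h level. A second DUSP1 probe set fell by 2.11 on the log2 scale, while the dimmest, with means of 52.9 and 53.8, had a difference of -0.03 and was not called.

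EDN1, the vasoconstrictor peptide endothelin-1, read 3815, 4081 and 4182 at 1 h and 1514, 1861 and 1800.3 at 4 h, a difference of -1.23 ± 0.13 (SE, adjusted p = 0.00014). It too remained above its LHR+ mean of 397. CCN1 and CCN2, matricellular proteins and targets of the YAP coactivator, fell by 1.28 ± 0.14 and 1.09 ± 0.12 (SE) on the log2 scale. Their means at 4 h, 3650.1 and 2808, stood against LHR+ means of 3106 and 651.

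Genes that restrain MAP kinase signalling included falling members but no rising ones. Of 24 measured, 5 fell (DUSP1, DUSP5, DUSP6, SPRY2 and SPRY4), beside 0.8% of all genes, and limma called 0 up, with 0 up at unadjusted p under 0.05 and 0 by the ordinary test. The list's median was -0.13. DUSP5, a nuclear ERK phosphatase, fell from 4151 ± 44.4 to 1776 ± 46.6 (SD, n = 3 each), a difference of -1.22 ± 0.13 (SE). DUSP6, the cytoplasmic ERK phosphatase, read 241, 307 and 232 at 1 h and 107, 94.2 and 81.9 at 4 h, a difference of -1.45 ± 0.23 (SE, adjusted p = 0.0025). SPRY4 and SPRY2, inhibitors of receptor tyrosine kinase signalling, fell by 1.64 ± 0.25 and 1.17 ± 0.13 (SE) on the log2 scale. DUSP6 and SPRY4 ended below their LHR+ means of 154 and 38.1, at 94.4 and 26.7, whereas DUSP5 at 1776 was still above its LHR+ mean of 793.

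Among 27 targets of YAP and serum response factor, 3 fell, namely ANKRD1, CCN1 and CCN2, beside 0.8% of all genes. Limma called 0 of them up, with 2 up at unadjusted p under 0.05 and 0 by the ordinary test, and the median was 0.02. ANKRD1, an ankyrin repeat protein, read 818, 741 and 789 at 1 h and 141, 112 and 206 at 4 h, a difference of -2.39 ± 0.35 (SE, adjusted p = 0.0015). The LHR+ mean was 302, so ANKRD1 crossed from above to below the level without LH. Of 40 Wnt and Notch genes, HES1, which fell, was the 1 called, beside 0.8% of all genes down.

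**Figure D2:**
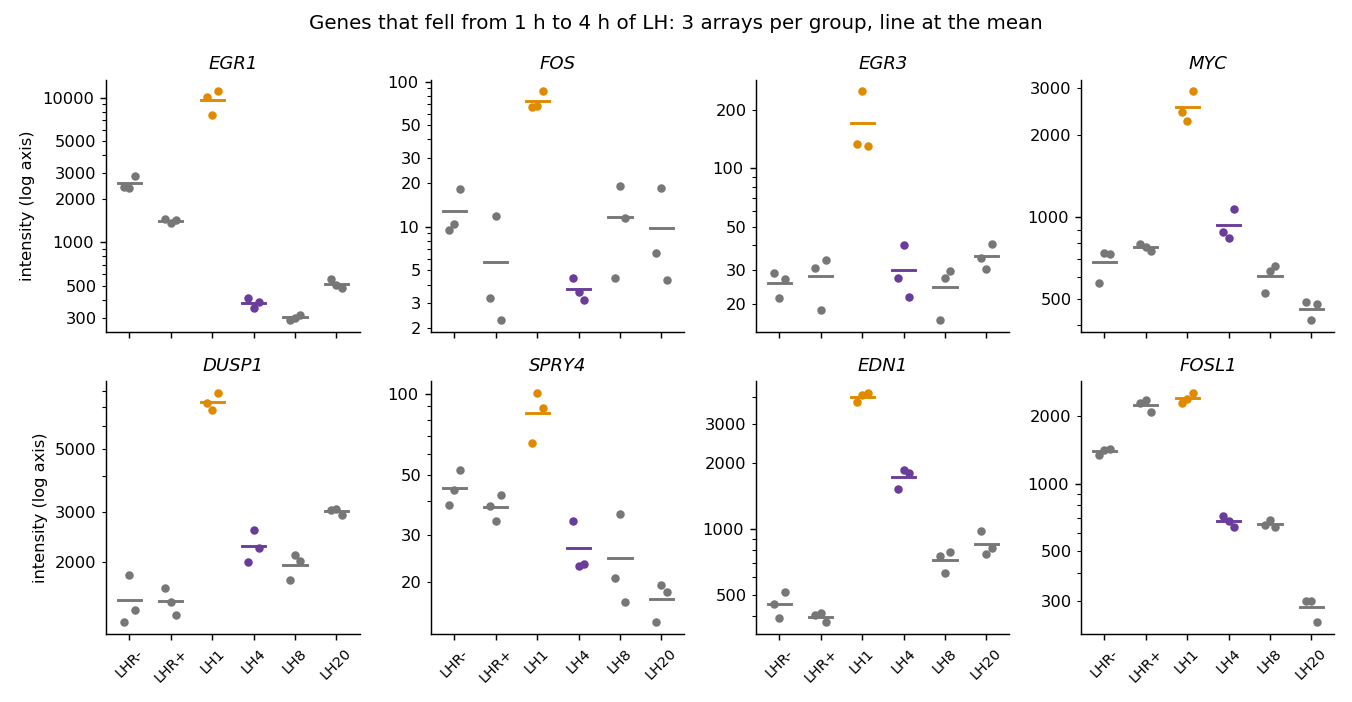
Intensity (log axis) of 8 early genes on each of the 18 arrays, by group from LHR- to LH20. Points are arrays and lines group means. In the 7 genes other than FOSL1 the 3 LH1 arrays are the highest of any group, and all 8 are lower on every LH4 array than on every LH1 array.

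The genes that rose included several that end or pass on a cAMP signal. Of 37 cAMP and CREB target genes measured, 7 rose (PDE7B, PDE4D, PDE10A, NR4A3, CREM, BDNF and AKAP12) and 2 fell (FOS and DUSP1, described above), with a median of 0.19. The 7 stand beside 0.739% of all genes that rose. With the mean of a gene's probe sets in place of the brightest, 3 rose, as PDE10A, NR4A3, CREM and AKAP12 were no longer called. PDE4D, PDE7B and PDE10A are cyclic nucleotide phosphodiesterases, which hydrolyse cAMP. PDE7B read 191, 241 and 194 at 1 h and 1908, 2107 and 1792 at 4 h, a difference of 3.21 ± 0.18 (SE, adjusted p = 5.6e-07) or 9.26-fold. At 1 h it was still at its LHR+ mean of 199.8, and at 20 h its mean was 2142.

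PDE4D read 784, 1137 and 999.8 at 1 h and 4503, 4451 and 4579.7 at 4 h, a difference of 2.23 ± 0.13 (SE, adjusted p = 6.9e-07). The LH4 arrays lay within a narrow band far above every LH1 array. PDE10A rose from 248 ± 31.5 to 618 ± 75.4 (SD, n = 3 each), a difference of 1.32 ± 0.16 (SE, adjusted p = 0.0003). PDE4B, a further cAMP phosphodiesterase, read 22.2, 51.4 and 11.4 at 1 h and 103, 69.9 and 75.5 at 4 h. Its groups did not overlap, but with a difference of 1.74 ± 0.61 (SE) and adjusted p = 0.19 it was not called, and leaving out LH1 replicate 2, which had the highest 1 h value, made it a call at 2.28.

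CREM encodes activators and, from an internal promoter, the cAMP-inducible repressor ICER. Its intensity was 419, 589 and 486 at 1 h and 1274, 1279 and 1299.8 at 4 h, a difference of 1.38 ± 0.13 (SE, adjusted p = 3.5e-05). At 1 h the mean of 498 was close to the 489.7 of LHR+ cells. Of its 6 probe sets, 3 rose, and none fell by the call rule. AKAP12, a scaffold that holds protein kinase A, rose from 2593 ± 543 to 5943 ± 172 (SD, n = 3 each), a difference of 1.22 ± 0.13 (SE, adjusted p = 8.9e-05). BDNF, a secreted neurotrophin, rose from 2056 ± 117 to 5239 ± 179.6 (SD, n = 3 each), a difference of 1.35 ± 0.14 (SE, adjusted p = 7.2e-05).

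NR4A3, the orphan nuclear receptor NOR-1, behaved as an early gene that went on rising. It read 593, 977 and 708 at 1 h and 3554, 3885 and 3725 at 4 h, a difference of 2.32 ± 0.24 (SE, adjusted p = 6.6e-05), and its LHR+ mean was 146. It was therefore already higher at 1 h than without LH and higher again at 4 h, before its mean came down to 664 at 8 h. A second probe set rose by 2.77 on the log2 scale, while another, 216979_at, fell from 179 to 31.2 (-2.58, adjusted p = 0.03).

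Windows of the NR4A3 and PDE7B promoters are shown because these were rising members of the cAMP list, and that of IL11 because it holds an AP-1 site, TGANTCA, with the same marks as before and the AP-1 letters in capitals. They lie at chr9:99821765-99821874 (plus strand), chr6:135851521-135851580 (plus strand) and chr19:55370524-55370583 (minus strand).
NR4A3: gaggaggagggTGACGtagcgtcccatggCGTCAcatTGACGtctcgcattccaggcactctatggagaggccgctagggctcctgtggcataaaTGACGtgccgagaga
PDE7B: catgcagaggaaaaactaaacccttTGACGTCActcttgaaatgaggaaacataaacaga
IL11: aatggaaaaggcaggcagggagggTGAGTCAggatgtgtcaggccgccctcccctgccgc
A full CRE occurred in 23.3% of the 30 promoters matched from the cAMP and CREB list, against 2.66% of all promoters matched. Among the 114 matched genes that rose, 4.39% held a full CRE, 29.8% the CRE core and 11.4% an AP-1 site, against 2.66%, 29.7% and 5.83% of all. The same shares were 2.59%, 23.3% and 6.9% among the 116 matched genes that fell.

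The ovulatory programme comprises genes that LH induces in the follicle before ovulation. Of 36 measured, 3 rose (HAS2, FST and PTGES), 2 fell (PTGER4 and PLAU) and the median was 0.09, beside 0.739% of all genes up and 0.8% down. PTGES, which makes prostaglandin E2, read 57.2, 80.3 and 65.6 at 1 h and 372, 285 and 277 at 4 h, a difference of 2.19 ± 0.20 (SE, adjusted p = 3.3e-05). A dimmer PTGES probe set, with means of 59.7 at 1 h and 58.5 at 4 h, had a difference of -0.04 (adjusted p = 0.97) and was not called. PTGER4, a receptor for prostaglandin E2, fell. It read 229.9, 282 and 188 at 1 h and 57.1, 44.8 and 35.8 at 4 h, a difference of -2.33 ± 0.19 (SE, adjusted p = 1e-05). The cyclooxygenase PTGS2, a hallmark of ovulation in granulosa cells, was dim at 15.1 ± 5.66 and 15.6 ± 2.08 (SD, n = 3 each) and was not called.

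FST, the activin-binding protein follistatin, read 11.8, 17.7 and 13.6 at 1 h and 52.6, 105 and 111 at 4 h, a difference of 2.50 ± 0.39 (SE, adjusted p = 0.0024), or 1.75 with the offset of 16. Other FST probe sets, with 1 h means of 16.9 and 23.7, had differences of 0.50 and 0.95 (adjusted p = 0.79 and 0.55) and were not called. HAS2, a hyaluronan synthase of the expanding cumulus matrix, read 8.90, 20.3 and 8.50 at 1 h and 88.2, 96.5 and 81.6 at 4 h. Its difference of 2.83 ± 0.78 (SE) passed narrowly at adjusted p = 0.077 and, with the offset of 16, was 1.90. The call was lost on leaving out any 1 of the 6 arrays except LH1 replicate 2. PLAU, the urokinase plasminogen activator, fell from 3961 ± 379 to 1964 ± 106 (SD, n = 3 each), and its difference of -1.01 ± 0.11 (SE) sat at the 2-fold limit.

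In the TGF-β, activin and BMP list, 3 of 44 genes rose, beside 0.739% of all genes, and limma called 0 down, with 4 down at unadjusted p under 0.05 and 0 by the ordinary test. The 3 were FST and the inhibitors of basic helix-loop-helix factors ID3 and ID4, and the median was 0.12. ID4 read 157, 209 and 135 at 1 h and 788, 838 and 546 at 4 h, a difference of 2.11 ± 0.22 (SE, adjusted p = 9.9e-05). ID3 rose from 649 ± 145 to 1912 ± 359.6 (SD, n = 3 each), a difference of 1.56 ± 0.20 (SE, adjusted p = 0.00048). Both IDs had higher means at 20 h, 1317 for ID4 and 3216 for ID3, than at 4 h. BMP2, a ligand that induces ID genes, had a mean of 666 at 1 h and 1299 at 4 h, a difference of 0.97 ± 0.12 (SE, adjusted p = 0.00037) that was just under 2-fold.

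Of 35 cytokines and chemokines, IL11 was the 1 gene that rose, beside 0.739% of all genes. Limma called 0 down, with 8 down at unadjusted p under 0.05 and 0 by the ordinary test. IL11, an interleukin 6 family cytokine, read 105, 114 and 146 at 1 h and 1046, 1077 and 956 at 4 h, a difference of 3.08 ± 0.20 (SE, adjusted p = 2e-06), and its second probe set rose by 3.41. The list's median was -0.21. The cytokines that were high at 1 h had lower means at 4 h without a call. IL6 had a mean of 1668 at 1 h and 1163 at 4 h (adjusted p = 0.21), against 49.4 in LHR+ cells. CXCL8 had means of 1332 and 1047 (adjusted p = 0.5) and CCL20 means of 72.7 and 52.8 (adjusted p = 0.86). IL6 and CXCL8 were thus still far above their LHR+ means of 49.4 and 198 at 4 h. CCL2 read 28.6, 14.8 and 23.5 at 1 h and 8.44, 1.04 and 9.43 at 4 h, at which dimness its difference of -1.94 ± 0.83 (SE) was not called (adjusted p = 0.31).

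Among 38 growth and angiogenic factors, BDNF rose and EDN1, CCN2 and PDGFB fell, beside 0.739% of all genes up and 0.8% down, and the median was 0.02. PDGFB, a platelet-derived growth factor chain, read 156, 191 and 172 at 1 h and 94.4, 58.4 and 66.6 at 4 h, a difference of -1.25 ± 0.19 (SE, adjusted p = 0.0021). Its 1 h mean of 173 was close to the 168 of LHR+ cells.

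The genes named for the size of their rise have varied known functions. SMOC1 read 92.7, 95.2 and 83.8 at 1 h and 1776, 1526 and 1472 at 4 h, a difference of 4.12 ± 0.12 (SE, adjusted p = 5.4e-10) or 17.4-fold. It continued upward to means of 2415 at 8 h and 4649 at 20 h. DMBT1, a secreted scavenger receptor of epithelia, read 44.2, 42.3 and 39.3 at 1 h and 726, 598 and 517 at 4 h, a difference of 3.83 ± 0.24 (SE, adjusted p = 1.1e-06). DAW1, an axonemal dynein assembly factor, rose from 46.4 ± 0.26 to 619 ± 70.9 (SD, n = 3 each), a difference of 3.70 ± 0.30 (SE). DMBT1 came down to 172 and DAW1 to 114 by 20 h, unlike SMOC1.

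MCF2L, a guanine nucleotide exchange factor, rose by 3.48 ± 0.30, and CHRNA9, a nicotinic receptor subunit, by 3.22 ± 0.49 (SE, log2). Both were dim at 1 h, with means of 22.3 and 21.5, and the sizes were 2.82 and 2.57 with the offset of 16. CRISPLD2, a secreted glycoprotein, read 152, 167 and 139 at 1 h and 1378, 1508 and 1237 at 4 h, a difference of 3.16 ± 0.14 (SE, adjusted p = 4.2e-08). It fell back to 173 at 20 h and had a mean of 1251 in LHR- cells.

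GRAMD1B, a sterol transfer protein, rose by 2.97 ± 0.25, DIRAS3, an imprinted Ras-like growth suppressor, by 2.76 ± 0.49, and FGFBP1, a carrier of fibroblast growth factors, by 2.72 ± 0.16 (SE, log2). PLPP3, a phosphatase of lysophosphatidic acid, read 522, 699 and 574 at 1 h and 3750.4, 3925 and 3835 at 4 h, a difference of 2.69 ± 0.11 (SE, adjusted p = 3.1e-08). PLPP3 had been at 597 in LHR+ cells, the same level as at 1 h. The adhesion molecule MCAM, the potassium channel KCNJ16 and the serine protease HTRA4 rose by 2.66 ± 0.25, 2.63 ± 0.35 and 2.50 ± 0.32 (SE, log2). At 20 h, KCNJ16 had reached a mean of 1669, against 345 at 4 h.

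**Figure D3:**
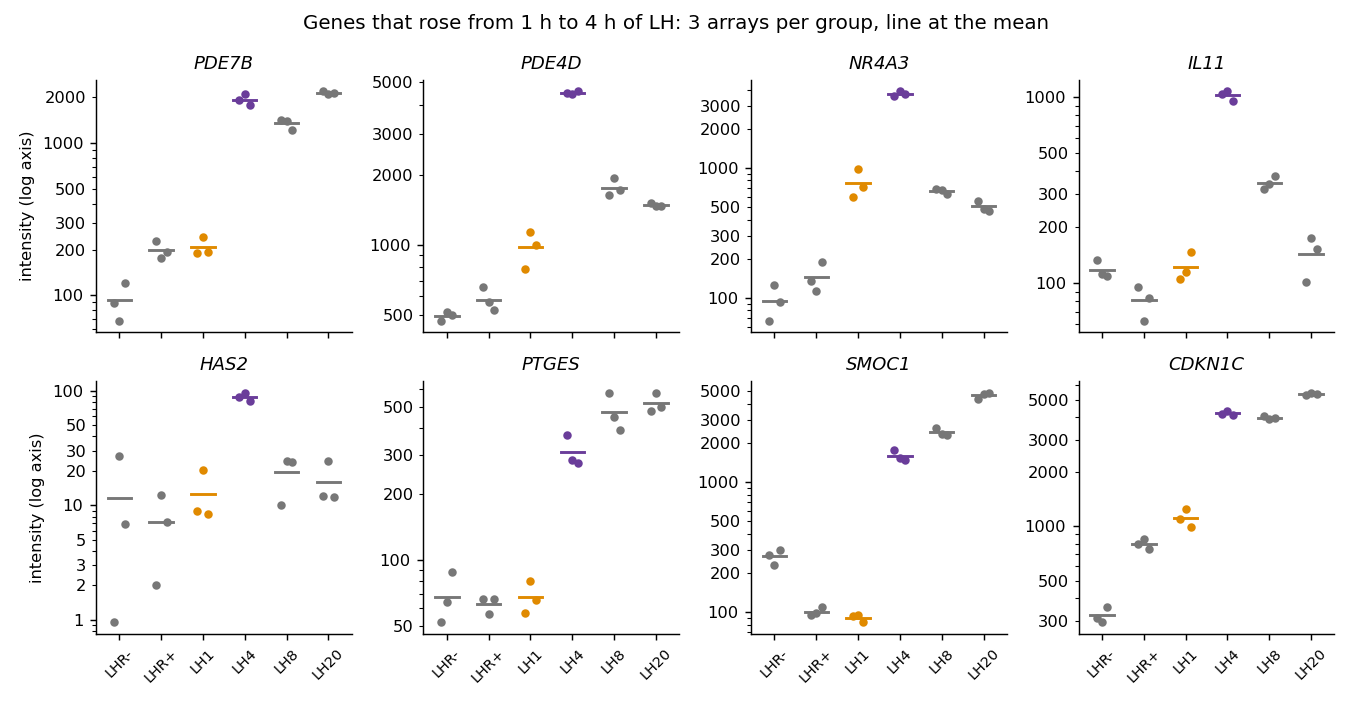
Intensity (log axis) of 8 genes that rose from LH1 to LH4, on each of the 18 arrays by group. Points are arrays and lines group means. All 8 are higher on every LH4 array than on every LH1 array, and NR4A3 is the one already well above LHR+ at 1 h.

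Of the 30 gene lists, that of mitosis held the most falling genes. Of 73 genes of G2 phase and mitosis, 32 fell, beside 0.8% of all genes, and 72 of 73 had a difference below 0, with a median of -0.90. Limma called 0 up, with 0 up at unadjusted p under 0.05 and 0 by the ordinary test. With adjusted p alone, 58 of the 73 fell, beside 2.88% of all genes. The mean log2 intensity of the 73 genes was 10.50 to 10.55 on the LH1 arrays and 9.58 to 9.64 on the LH4 arrays, so the list as a whole did not overlap between groups. It was 10.65 to 10.67 on the LHR+ arrays, 10.03 to 10.08 on the LH8 arrays and 9.66 to 9.72 on the LH20 arrays. The LH8 arrays thus lay above the LH4 and LH20 arrays and below the LHR+ arrays. Fewer cells in G2 and mitosis and less of each mRNA per cell cannot be told apart in bulk RNA.

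The 32 mitotic genes were not early genes. Their differences between LH1 and LHR+ ran from -0.53 to 0.02 with a median of -0.11. CDCA8, or borealin, a subunit of the chromosomal passenger complex, read 2115, 1912 and 1861 at 1 h and 532, 612 and 655 at 4 h, a difference of -1.71 ± 0.11 (SE, adjusted p = 2e-06). AURKB, the kinase of that complex, read 463, 453 and 434 at 1 h and 228, 205 and 221 at 4 h, a difference of -1.04 ± 0.14 (SE, adjusted p = 0.0008), which was -0.99 and no longer called with the offset of 16.

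The falling genes included motors and kinetochore proteins of the spindle. KIFC1, which clusters spindle poles, read 602, 703 and 609.5 at 1 h and 173, 146 and 146 at 4 h, a difference of -2.03 ± 0.20 (SE, adjusted p = 4.2e-05). KIF11, the motor that separates spindle poles, fell from 2202 ± 152 to 1037 ± 88.3 (SD, n = 3 each), a difference of -1.09 ± 0.09 (SE, adjusted p = 1.1e-05). NDC80, which ties kinetochores to microtubules, read 2741, 2088 and 2460.3 at 1 h and 669, 662 and 728 at 4 h, a difference of -1.81 ± 0.13 (SE, adjusted p = 4.2e-06). SGO2, a protector of centromere cohesion, fell by 1.80 ± 0.22 and CENPI, a centromere protein, by 1.69 ± 0.24 (SE, log2).

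At their brightest probe sets, the regulators of mitotic entry split by size of change. CDC25C, the phosphatase that activates CDK1, fell from 684 ± 152 to 215 ± 30.5 (SD, n = 3 each), a difference of -1.64 ± 0.16 (SE). The kinase PLK1 fell by 1.52 ± 0.12 and the checkpoint kinase BUB1 by 1.51 ± 0.14 (SE, log2). MKI67, the proliferation antigen Ki-67, read 2008, 2085 and 1740.4 at 1 h and 834, 938 and 784 at 4 h, a difference of -1.19 ± 0.13 (SE). CCNB1, or cyclin B1, had a difference of -0.74 ± 0.10 (SE, adjusted p = 0.0005) and CDK1 one of -0.52 ± 0.11 (SE, adjusted p = 0.016), which passed the test but not the 2-fold limit. At dimmer probe sets the differences were larger, -0.98 for CCNB1 and -0.97, -0.88 and -0.78 for CDK1, but none of these was called. TOP2A had -0.28 ± 0.08 (SE, adjusted p = 0.11) and MAD2L1 0.07 ± 0.14 (SE, adjusted p = 0.9). CCNA2, or cyclin A2, had -0.27 ± 0.13 (SE, adjusted p = 0.39) at its brightest probe set, whereas a dimmer one fell by 1.11 and was called.

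PIF1, a DNA helicase, was not on the mitotic list and fell with it from 244 ± 27.1 to 60.9 ± 13.2 (SD, n = 3 each), a difference of -2.00 ± 0.24 (SE, adjusted p = 0.00025). HMMR, a spindle and hyaluronan-binding protein, fell by 1.39 ± 0.09 (SE, log2), and its antisense transcript HMMR-AS1 read 200.1, 219.5 and 101 at 1 h and 30.4, 49.1 and 27.3 at 4 h. The HMMR-AS1 difference was -2.22 ± 0.36 (SE, adjusted p = 0.0032).

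DNA replication genes were not called at this step at their brightest probe sets. Limma called 0 of 39 up and 0 down, with 8 up and 1 down at unadjusted p under 0.05 and 0 in either direction by the ordinary test, and the median was 0.03. Differences ran from -0.74 to 0.54, so the 2-fold limit alone kept every gene from a call by either test. The list's mean log2 intensity was 9.46 to 9.50 on the LH1 arrays and 9.49 to 9.52 on the LH4 arrays. PCNA, the sliding clamp of DNA polymerase, had a mean of 2790.0 at 1 h and 3380.2 at 4 h (0.28 ± 0.12, SE, adjusted p = 0.33). The helicase subunit MCM6 had a difference of 0.54 ± 0.09 (SE, adjusted p = 0.0047) and MCM2 one of -0.03 ± 0.16 (SE, adjusted p = 0.96). A dimmer MCM6 probe set, with means of 130 at 1 h and 349 at 4 h, rose by 1.46 (adjusted p = 0.0018) and was called. DBF4, which activates the replication kinase CDC7, had the lowest difference of the list, -0.74 ± 0.12 (SE, adjusted p = 0.004). Whether the mitotic list differed from the replication list was not tested.

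Among 22 D and E cyclins, E2F factors and CDK inhibitors, 1 rose and 1 fell, beside 0.739% and 0.8% of all genes, with a median of 0.27. CDKN1C, the CDK inhibitor p57, read 1095, 1238 and 991 at 1 h and 4148, 4323 and 4098 at 4 h, a difference of 1.92 ± 0.10 (SE, adjusted p = 3.9e-07). Its mean was 799 in LHR+ cells, 3977 at 8 h and 5389 at 20 h, so the rise lasted. CDKN1A, the inhibitor p21, had means of 1258 and 1599 and was not called (adjusted p = 0.34), and CCND1, or cyclin D1, had means of 1008 and 945 (adjusted p = 0.89). E2F2, an S phase transcription factor, read 73.9, 94.0 and 83.8 at 1 h and 40.8, 44.3 and 37.8 at 4 h. Its call at -1.01 ± 0.28 (SE, adjusted p = 0.071) was lost on leaving out any 1 of the 6 arrays.

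The promoter windows below, from the mitotic block are shown because they hold the letters of the cell cycle gene homology region (CHR), TTTGAA, in capitals (TTCAAA on the other strand), just before the start. The windows are chr1:37692456-37692515 (plus strand) for CDCA8, chr10:92593070-92593129 (plus strand) for KIF11 and chr15:64825648-64825707 (minus strand) for PIF1.
CDCA8: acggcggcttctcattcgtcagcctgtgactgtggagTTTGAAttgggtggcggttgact
KIF11: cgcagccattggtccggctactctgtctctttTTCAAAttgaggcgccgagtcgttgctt
PIF1: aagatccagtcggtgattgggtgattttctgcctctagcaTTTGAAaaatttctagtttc
CHR letters occurred in 63.9% of the 61 matched promoters of the mitotic list and in 11.9% of all matched promoters. The shares were 23.3% among the 116 matched genes that fell and 18.4% among the 114 that rose.

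**Figure D4:**
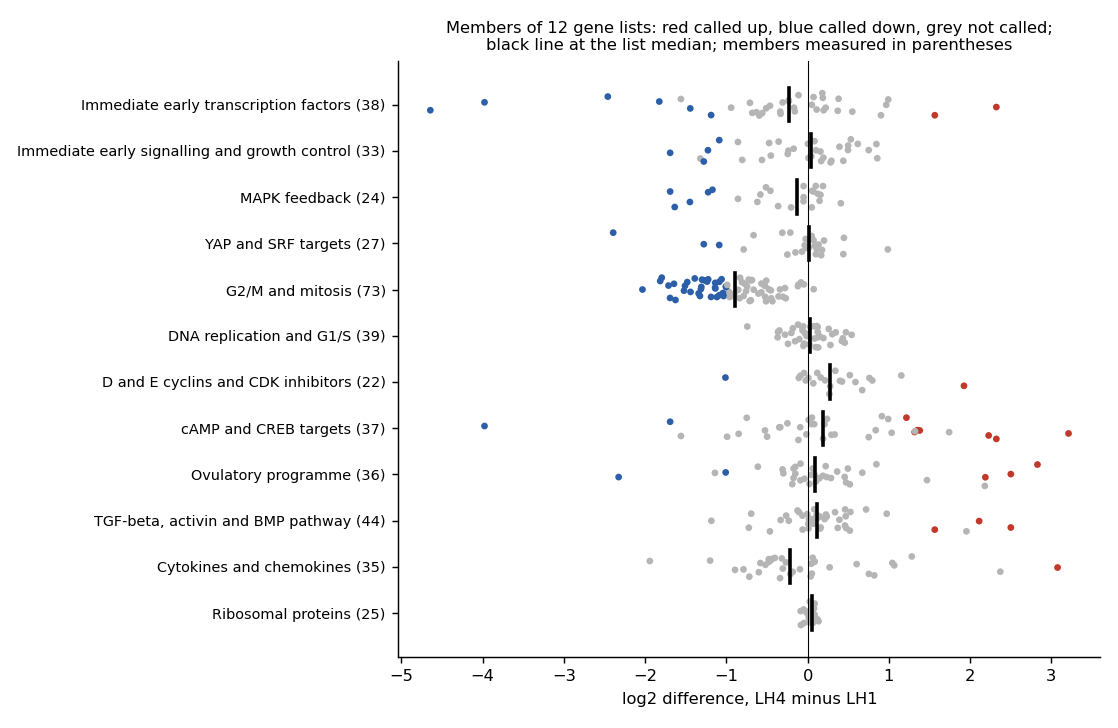
Log2 difference, LH4 minus LH1, of each measured member of 12 gene lists, 1 point per gene, with a line at each list's median. Mitotic genes lie almost wholly below 0 with a median of -0.90, while DNA replication genes centre on 0.03.

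Outside these groups, the named genes that fell were varied. BMF, a pro-apoptotic BCL2 family member and the 1 gene called of 36 in the apoptosis list, read 688, 621 and 744 at 1 h and 250.3, 162 and 182 at 4 h, a difference of -1.80 ± 0.15 (SE, adjusted p = 1.4e-05). Its mean was 1154 at 20 h, and the 1 call of 36 stands beside 0.8% of all genes down. VAV3, a guanine nucleotide exchange factor, fell from 209 ± 42.6 to 91.6 ± 14.3 (SD, n = 3 each), a difference of -1.17 ± 0.23 (SE, adjusted p = 0.011), before a mean of 1366 at 20 h. MIA, a small secreted protein first found in melanoma, fell by 2.16 ± 0.43 (SE, log2), or 1.52 with the offset of 16. PAX8-AS1, an RNA antisense to the transcription factor gene PAX8, read 411, 273 and 412 at 1 h and 78.8, 85.8 and 151 at 4 h, a difference of -1.82 ± 0.32 (SE, adjusted p = 0.0052).

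Single members were called in a few further lists, beside 0.739% of all genes up and 0.8% down. ITGB8, an integrin subunit that activates latent TGF-β, rose by 1.58 ± 0.14 (SE, log2) and was the 1 of 25 integrin and laminin genes called. INSIG1, which restrains sterol synthesis, rose by 1.05 ± 0.16 and was the 1 of 26 cholesterol and fatty acid genes called, a call lost without LH1 replicate 1 or replicate 3. Of 28 interferon-stimulated genes, ISG15 rose by 1.35 ± 0.11 and IFIT2 fell by 1.09 ± 0.16, a call lost at -0.89 with the offset of 16. Of 15 heat shock genes, HSPA1L fell by 1.13 ± 0.25, a call lost without LH4 replicate 3 and, at -0.96, with the offset of 16.

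The other 13 of the 30 lists had no called member among 338 genes in all. Limma called 0 of these up and 0 down, with 56 up and 21 down at unadjusted p under 0.05. The ordinary test also called 0 in either direction. In several of these lists its 2-fold limit allowed no call. Differences ran, for example, from -0.31 to 0.91 in the circadian clock and from -0.09 to 0.13 in ribosomal proteins. Medians of the 13 lists ran from -0.14 to 0.17. They include DNA replication, given above, and the circadian clock, p53 targets, the unfolded protein response, hypoxia and glycolysis, collagens, metalloproteinases and the 25 ribosomal proteins, which had a median of 0.05, or -0.06 without LH1 replicate 2.

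Ribosome biogenesis is also among the lists without a called member, but most of its differences were small and above 0. These genes make and modify ribosomal RNA and assemble the ribosome. Of 34 measured, 28 had a difference above 0, and the median was 0.17. With adjusted p alone, 6 of the 34 rose and 0 fell, beside 3.08% and 2.88% of all genes. At unadjusted p under 0.05, 13 were up and 0 down, with no share of all genes to set beside them. The ordinary test called 0 in either direction, but with a largest difference of 0.71 its 2-fold limit allowed no call. The list's mean log2 intensity was 10.63 to 10.65 on the LH1 arrays and 10.86 to 10.88 on the LH4 arrays, which do not overlap. It was 10.69 to 10.71 on the LHR+ arrays. Without LH1 replicate 2 the median was 0.19 and 6 rose by adjusted p alone.

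The stromal markers were checked too. Of 8 fibroblast and stromal markers, COL1A1 was above 1000 on all 18 arrays and LUM was the 1 called, beside 0.739% of all genes up. LUM rose from a mean of 22.5 to 48.1, by 1.07 ± 0.26 (SE, log2), and the call was lost on leaving out any of 3 arrays.

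Several genes that the study discusses for LH were not called at this step. THBS1, thrombospondin-1, had means of 4322 and 5818 (0.44 ± 0.18, SE, adjusted p = 0.29). TNFSF10, the death ligand TRAIL, had means of 9.32 and 19.1 (adjusted p = 0.2) and reached 1521 at 20 h. CXCL12, a chemokine, had a brightest probe set at 11.6 ± 15.1 and 37.5 ± 4.42 (SD, n = 3 each, adjusted p = 0.35), while its dimmer one was called at 2.61. PPP1R15A, a phosphatase subunit of the stress response, had a difference of -0.81 ± 0.16 (SE, adjusted p = 0.015), below the 2-fold limit.

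LH8 against LHR+ shares no array with LH4 against LH1 and so gives the same genes in other samples, at a later time and against cells without LH. There, 169 genes rose, 0.856% of all, and 119 fell, 0.602%. Of the 146 genes that rose from 1 h to 4 h, 71 were also called up in LH8/LHR+, which is 48.6% of the 146 and 42.0% of the 169, and 0 were called down. Their median LH8/LHR+ difference was 1.07 and 129 of the 146 were above 0, against a median of -0.01 and 9627 of 19752 over all genes. Without LH1 replicate 2, 72 rising and 15 falling genes were called the same way in LH8/LHR+. SMOC1 (4.57), DAW1 (3.96), PDE7B (2.75) and CDKN1C (2.32) are examples of genes high in both.

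The falling genes were set against the same calls at 8 h. Of the 158, 15 were called down in LH8/LHR+, which is 9.49% of the 158 and 12.6% of the 119. One, TPGS1, was called up there at 1.14, although its LH4/LH1 value of -1.75 became -0.97 with the offset of 16. Their median LH8/LHR+ difference was -0.56, with 27 of 158 above 0. EGR1 at -2.22, FOSL1 at -1.76, MKI67 at -1.30, BUB1 at -1.28 and DUSP6 at -1.01 were low in both. Of the 73 mitotic genes, 4 were called down in LH8/LHR+, beside 0.602% of all genes, and the list's median there was -0.60. The difference between the shares of rising and falling genes was not tested.

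**Figure D5:**
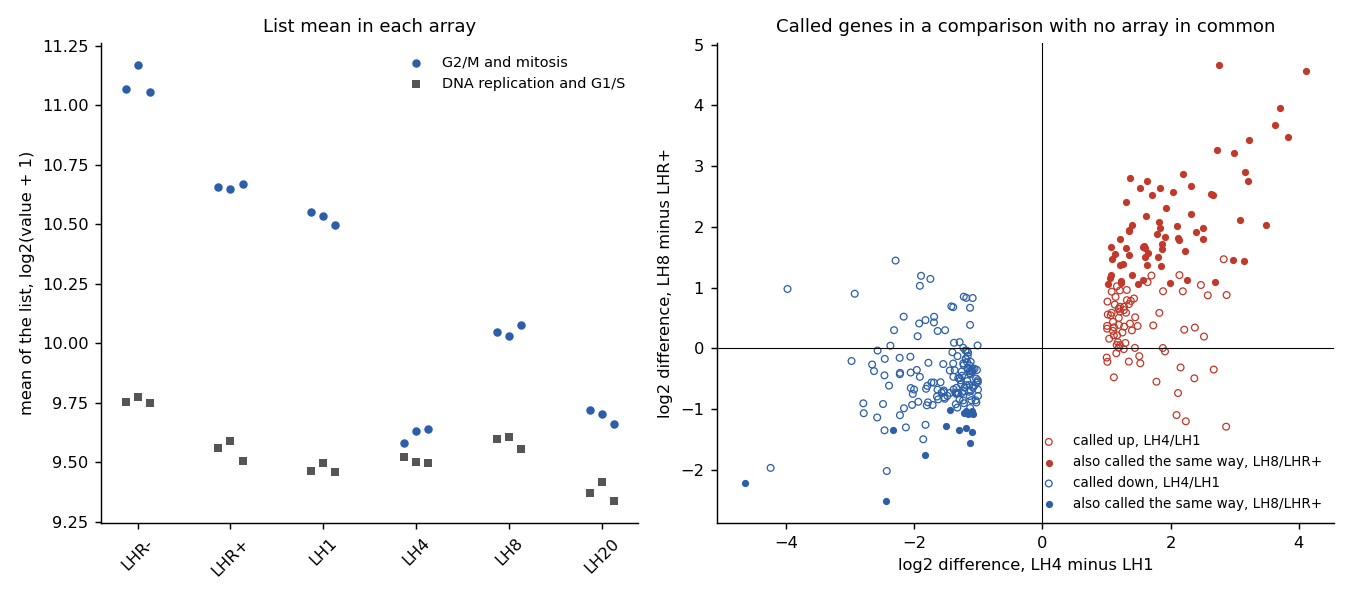
Left, mean log2 intensity of the G2/M list (73 genes) and the DNA replication list (39 genes) on each of the 18 arrays by group, with the G2/M list at 9.58 to 9.64 on the LH4 arrays. Right, genes called in LH4/LH1 by their difference in that comparison (x axis) and in LH8/LHR+ (y axis), log2 scale, with 129 of the 146 rising genes above 0 and 27 of the 158 falling genes above 0.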

How the data were processed

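Total RNA of 18 SKOV-3 samples was amplified with the NuGEN Ovation system and hybridised to Affymetrix arrays. The authors deposited 1 linear intensity per probe set and array. The labels name PLIER as the summarising tool and the study's methods name RMA, and neither gives a version, so which of them made the values is not settled here. Of 54675 probe sets, 62 control probe sets were left out. All others entered limma (version 3.58.1, R 4.3.3) as log2(intensity + 1), with 1 mean per group over all 18 arrays. The thresholds for p, adjusted p, fold and separation of the triplicates follow the study's methods. The fit was tested on simulated data. The number of arrays limits the precision, since an exact permutation test of 3 against 3 arrays cannot go below p = 0.1.

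Symbols came from the platform annotation, updated through RefSeq, which gave 41091 probe sets 1 symbol, 1801 several and 11721 none. The 19752 genes were each represented by the brightest probe set with 1 symbol. The 1 h and 4 h arrays with the same replicate number did not deviate together (r = 0.011, 0.017 and 0.022), so they were not paired. Promoter sequences (RefSeq, GRCh38.p14) matched 15390 of the genes, taking the first start listed for each symbol, and motifs were searched on both strands.

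The comparison and the gene lists were chosen with earlier results of these data known. Genes were named by rule: up to 15 called genes in each direction with the largest difference and a mean intensity above that of the median probe set (52.3), up to 3 called members of each list in each direction, immediate early factors called in LH4/LH1 or LH1/LHR+, and genes that the study discusses. PLK1, BUB1, CDC25C, AURKB, MKI67, CCNB1, CDK1, TOP2A, CCNA2, MAD2L1, MCM6, PCNA, MCM2, DBF4, DUSP5, SPRY2, CREM, AKAP12, PDE10A, PTGS2, TM4SF1, KIAA1217, CDKN1A, CCND1, PAX8, HMMR, EREG, BMP2 and TPGS1 were named after their values were seen, and the CHR motif was added then, as were the gene counts and the 8 h overlap without LH1 replicate 2. Alternatives changed the offset, the filter, the scaling, the arrays in the fit, the replicate block, the call rule, the probe set per gene and the test.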

Additional observations from a re-analysis of the deposited data

How the results depend on the processing

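The 401 probe sets that rose and 430 that fell became 295 and 283 with an offset of 16, 296 and 300 with a minimum mean intensity of 50 (27610 tested), 453 and 419 after quantile normalization, 424 and 380 with equal array medians, 295 and 329 in a fit of the 6 arrays alone, and 383 and 421 with a replicate block, which left 32 mitotic genes down. Adjusted p alone gave 1276 and 1227, the ordinary test 218 and 234, 1 probe set per gene 166 and 190, and the mean of a gene's probe sets 122 and 141. Leaving out 1 array gave 330 to 525 up, the highest without LH1 replicate 2, and 326 to 407 down. Mitotic genes down then ranged from 31 to 33, immediate early factors down stayed at 6, MAP kinase feedback genes down at 5, and cAMP targets up ranged from 7 to 10. Adjusted p alone gave 58 mitotic genes and 12 immediate early factors down, 11 cAMP targets up and 8 MAP kinase feedback genes down, and 248 genes up and 216 down in both LH4/LH1 and LH8/LHR+. Means of probe sets left 3 cAMP targets up, and the offset of 16 left 9 genes down in both. Of 72 named genes that were called, 42 kept the call under every alternative. KIAA1217 turned to -0.034 with the mean of its probe sets. Genes that were not called also changed sign, THBS1 to -0.34 and MAD2L1 to -0.17 with the mean of probe sets. Leaving out 1 array gave -0.16 to 0.028 for CCND1, -0.013 to 0.18 for MAD2L1, -0.14 to 0.11 for MCM2 and -0.22 to 0.32 for PTGS2. The causes were not tested. Low intensities limit what can be said of FOS, HAS2, FST and other dim genes.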

Other observations

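Probe sets of the same gene were called in opposite directions in 3 of the 10521 genes with several probe sets. In NR4A3 the probe sets 209959_at and 207978_s_at rose, by 2.32 and 2.77 on the log2 scale, while 216979_at fell by 2.58, from a mean of 179 to 31.2. In TM4SF1, a tetraspanin-like surface protein, 209387_s_at rose from 2956 to 9720, and 215034_s_at rose by 1.73, while 238168_at fell from 227 to 57.4 (-2.02). The brightest TM4SF1 probe set went from 10762 to 15237 and was not called at 0.50 ± 0.11 (SE). In KIAA1217, 231807_at rose by 1.10 and 232046_at fell by 1.10. The 3 probe sets that fell were all higher at 1 h than in LHR+ cells, whose means were 20.3, 8.07 and 50.0. The annotation does not say which part of the transcript each probe set reads. In THBS1, which was not called at its brightest probe set, 215775_at and 239336_at fell by 1.56 and 1.29.

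PAX8-AS1 and PAX8 moved in opposite directions in value. PAX8 is a lineage transcription factor of ovarian carcinoma. Its brightest probe set had means of 2042 at 1 h and 3647 at 4 h. That difference of 0.84 ± 0.13 (SE, adjusted p = 0.0017) was under the 2-fold limit. Dimmer PAX8 probe sets with means of 1280 and 525 at 1 h were called, with rises of 1.11 and 1.09 on the log2 scale. The remaining PAX8 probe sets, dimmer still, had differences above 0 and were not called. PAX8-AS1 fell from 365 to 105. The PAX8-AS1 mean was 79.0 in LHR+ cells, so this RNA was at its highest at 1 h. The epidermal growth factor family ligand EREG, known as an LH-induced gene of the follicle, was dim, at 3.71 ± 5.48 and 13.4 ± 6.72 (SD, n = 3 each), and was not called.

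Of 11721 probe sets without a gene symbol, 82 rose (0.7%) and 114 fell (0.973%), near the 0.734% and 0.787% of all probe sets. Among the other probe sets of the called genes that were brighter than the median probe set, 78 of 84 for rising genes and 53 of 53 for falling genes had the sign of the gene's brightest probe set, and 55 and 31 were called the same way.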
